A study of Mus musculus with 59 samples.

Results

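The genes followed here across single mouse epiblasts lacking either of 2 histone methyltransferases were Acpp, Tox2, Snx11, Mfap3l, Atp2b4, Fbn2, Heg1, Ppp2r2c, Scube3 and Snx25. These 10, of 22134 genes with a listed transcript, had been picked because they rose in both knockouts in an earlier fit of these same libraries. Their rise is therefore a description, and the values open to a test are the differences in size between the crosses, which the choice also limits. Each gene was read by 1 transcript, the one with the highest mean count over the 14 epiblasts, and an isoform missing from a library's list was taken as 0. The data did not bear out the choice for 1 member, since the Snx11 transcript read here was not raised in the Ezh2 knockouts.

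RNA was sequenced from individual epiblasts dissected at E6.25, on a mixed background. The Ehmt2 cross held 4 epiblasts labelled G9a+/+ and 4 labelled G9a-/-, and the Ezh2 cross held 3 labelled Ezh+/+ and 3 labelled Ezh-/-. The study's methods state that controls could also be heterozygous, and that the Ehmt2 allele was combined with a reporter in which Pou5f1 regulatory sequence without its proximal enhancer drives EGFP. Embryos came from matings of heterozygotes, so their other tissues also lacked the enzyme. Per the study's methods, the epiblasts came from 4 litters in the Ehmt2 cross and 3 in the Ezh2 cross. Litters were not given for single samples, so p-values measure the spread between these embryos. The study's methods compare each knockout with all controls, but a column heading of its supplementary data sets Ehmt2 knockout 4 against control 4, and the fits here kept replicate 4 as a set apart from replicates 1 to 3.

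G9a, encoded by Ehmt2, places H3K9me2 on chromatin, a mark of repressed genes. EZH2 is the catalytic subunit of Polycomb repressive complex 2, which places H3K27me3. Both marks lie over genes kept silent in the postimplantation epiblast, the tissue from which the body of the embryo forms. The 10 genes share no pathway. They include enzymes and an enzyme subunit (Acpp, Atp2b4, Ppp2r2c), a nuclear factor (Tox2), extracellular or cell surface proteins (Fbn2, Scube3, Heg1, Mfap3l) and endosomal sorting proteins (Snx11, Snx25).

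Library totals over 1 transcript per gene ran from 12495094 to 28434545 counts. Ehmt2 reads were lower in all 4 G9a-/- epiblasts (8.07 to 21.7 CPM, counts scaled to a common library total) than in all 4 controls (25.8 to 78.5 CPM). Ezh2 reads were lower in all 3 Ezh-/- epiblasts (28.1 to 39.5 CPM) than in the 3 controls (129 to 269 CPM). All 9 epiblast markers were detected in every library, with summed levels from 6501 to 7468 CPM in the Ehmt2 controls and from 3867 to 5314 CPM in the Ehmt2 knockouts. A library of each group of the Ezh2 cross stood apart in 13 visceral endoderm markers, which summed to 3157 CPM in control 2 and 6972 CPM in knockout 1, against 92.9 to 127 CPM in the other 4. The 14 extraembryonic ectoderm markers, scored as their mean log2 level, lay between 1.15 and 2.14 in the Ehmt2 controls, and at 5.64, 3.78, 4.05 and 1.20 in knockouts 1 to 4. They lay between 1.35 and 1.57 in the Ezh2 controls, and at 3.24, 2.34 and 1.59 in knockouts 1 to 3. At most 4 of these markers had no count in a control, and 7 had none in Ehmt2 knockout 4. In that knockout Esrrb (2.52 CPM), Bmp4 (9.86 CPM) and Ets2 (41.7 CPM) were above every Ehmt2 control. Ddah1 (16.3 CPM), Eomes (37.4 CPM) and, at 0 CPM, Wnt7b, Sox21 and Tfap2c were below every Ehmt2 control.

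The genes' promoters are shown for the 4 members on which the comparison turns: the pair raised by more than log2 1.4 in every knockout (Acpp, Tox2), the one with the widest spread between knockouts (Ppp2r2c) and the one that differed in direction (Snx11). RefSeq windows on GRCm38.p6, 250 bases before to 50 after a start, were matched for 9 of the 10 members. Capitals mark TCCCGC, a core sequence of E2F sites, or its reverse complement GCGGGA, searched on both strands. The Acpp window lies at chr9:104337673-104337972 on the minus strand, Tox2 at chr2:163202877-163203176 on the plus strand, Ppp2r2c at chr5:36868260-36868559 on the plus strand and Snx11 at chr11:96777506-96777805 on the minus strand, and the start of each is within 24 bases of that of the transcript read.
Acpp: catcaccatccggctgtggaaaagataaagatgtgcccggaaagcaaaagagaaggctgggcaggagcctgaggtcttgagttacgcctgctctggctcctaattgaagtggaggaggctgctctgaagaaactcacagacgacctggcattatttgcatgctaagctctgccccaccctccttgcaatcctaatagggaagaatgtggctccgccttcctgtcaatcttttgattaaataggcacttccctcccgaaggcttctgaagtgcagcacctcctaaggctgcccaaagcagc
Tox2: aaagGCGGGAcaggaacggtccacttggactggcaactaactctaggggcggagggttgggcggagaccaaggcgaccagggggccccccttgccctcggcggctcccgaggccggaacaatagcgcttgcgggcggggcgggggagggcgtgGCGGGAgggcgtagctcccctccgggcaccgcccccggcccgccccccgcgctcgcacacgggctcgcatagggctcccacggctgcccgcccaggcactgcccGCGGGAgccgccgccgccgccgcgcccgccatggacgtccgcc
Ppp2r2c: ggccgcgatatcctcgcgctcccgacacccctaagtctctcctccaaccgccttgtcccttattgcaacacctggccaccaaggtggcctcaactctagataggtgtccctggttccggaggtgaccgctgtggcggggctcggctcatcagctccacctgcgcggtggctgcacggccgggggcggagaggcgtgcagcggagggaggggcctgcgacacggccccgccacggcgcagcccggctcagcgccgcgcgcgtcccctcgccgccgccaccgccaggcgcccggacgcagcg
Snx11: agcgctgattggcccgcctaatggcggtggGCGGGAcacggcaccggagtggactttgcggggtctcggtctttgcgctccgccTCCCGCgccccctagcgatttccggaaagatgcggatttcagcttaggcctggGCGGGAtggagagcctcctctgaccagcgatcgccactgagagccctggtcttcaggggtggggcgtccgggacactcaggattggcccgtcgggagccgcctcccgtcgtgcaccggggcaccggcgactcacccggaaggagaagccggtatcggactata

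These windows differed in CpG content. The Acpp window held 6 CpG dinucleotides and that of Tox2 held 38, with 36 in Ppp2r2c and 31 in Snx11. Over the 9 members the count ran from 4 to 38 with a median of 29, against a median of 7 over 32851 windows of the same length. The TCCCGC letters were in 5 of 9 members and in 20.0% of all windows, and CACGTG, the E-box core, was in 0 of 9 and in 7.15% of all windows. Both sequences contain a CpG, and the windows were not matched for CpG content, so these shares are not a like comparison. Atp2b4 had its only window 47294 bases from the start of the transcript read, so its letters describe another start. The window starts of Scube3 and Snx25 were 168 and 282 bases from those of the transcripts read.

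Acpp (ENSMUST00000062723, chr9:104288251-104337728, minus strand), the prostatic acid phosphatase, a membrane-bound and secreted enzyme that also removes phosphate from extracellular AMP, changed most. Its control levels in the Ehmt2 cross were 0.616, 0.861, 0.800 and 0.1296 CPM, from 3 to 16 counts. The G9a-/- epiblasts held 34.9, 38.4, 18.4 and 15.9 CPM. Every knockout was far above every control, and the fitted change was 48.3-fold (log2 5.59, SE 0.41, n = 4 and 4). In the Ezh2 cross the controls were at 0.420, 2.00 and 0.843 CPM and the knockouts at 7.41, 4.02 and 9.92 CPM. Again the groups did not overlap, and the change was 6.48-fold (log2 2.70, SE 0.66, n = 3 and 3). Leaving out single epiblasts moved it from log2 2.31 without control 1 to 3.46 without control 2. Control levels of the crosses overlapped, and all 4 Ehmt2 knockouts lay above all 3 Ezh2 knockouts. In whole epiblasts, a change in the number of cells expressing a gene and a change in RNA per cell cannot be told apart.

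Tox2 (ENSMUST00000109428, chr2:163203125-163324170, plus strand), which encodes an HMG-box nuclear protein, rested on few reads but separated the groups in both crosses. The Ehmt2 controls held 0.677, 0.377, 0.333 and 0.0864 CPM and the knockouts 5.20, 2.09, 1.60 and 1.26 CPM. The Ezh2 controls held 0.350, 0.570 and 0.281 CPM and the knockouts 1.30, 4.02 and 1.43 CPM. No control of either cross reached the lowest knockout. Changes were 7.44-fold in the Ehmt2 cross (log2 2.89, SE 0.71) and 5.48-fold in the Ezh2 cross (log2 2.46, SE 0.77), with 2 to 11 counts behind each control value. One Ezh2 knockout carried much of the second value, which was log2 1.74 without knockout 2.

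Ppp2r2c (ENSMUST00000031003, chr5:36868513-36955078, plus strand), the gamma member of the B55 regulatory subunits of protein phosphatase PP2A, had the widest spread. The Ehmt2 controls were at 2.46, 3.12, 1.13 and 2.07 CPM. The knockouts were at 145.71, 26.2, 26.01 and 2.41 CPM, so knockout 1 lay far above the others and knockout 4 within the controls. In the Ezh2 cross the controls were at 8.61, 4.21 and 1.97 CPM and the knockouts at 17.96, 14.8 and 18.7 CPM. The knockouts of that cross lay close together and above every control. The log2 change was 3.95 (SE 0.92) in the Ehmt2 cross, 2.71 without knockout 1, 4.87 without knockout 4 and 4.86 without control 4. It was 1.79 (SE 0.48) in the Ezh2 cross, and there 1.41 without control 3 and 2.46 without control 1.

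Fbn2 encodes fibrillin 2, a microfibril protein of the extracellular matrix, and had 1 listed isoform, ENSMUST00000025497, on chromosome 18. All these transcripts are annotated as protein coding on GRCm38. The Ehmt2 controls held 6.71, 3.60, 3.60 and 1.30 CPM and the knockouts 7.72, 16.2, 17.5 and 12.3 CPM. The Ezh2 controls held 5.88, 6.99 and 4.36 CPM and the knockouts 20.8, 13.9 and 11.0 CPM. Groups did not overlap in either cross, although Ehmt2 knockout 1 was only just above control 1. Changes were 3.90-fold (log2 SE 0.44) and 2.64-fold (log2 SE 0.35).

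Scube3 (ENSMUST00000043503, chr17:28142141-28174854, plus strand) encodes a secreted, membrane-associated signalling protein with EGF-like repeats, and varied least between embryos. The Ehmt2 controls held 5.17, 7.64, 6.53 and 8.17 CPM and the knockouts 17.1, 12.2, 11.9 and 13.1 CPM. The Ezh2 controls held 8.75, 6.34 and 6.04 CPM and the knockouts 15.6, 14.9 and 24.8 CPM. Both crosses separated completely, with changes of log2 0.99 (SE 0.29) and 1.38 (SE 0.32).

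Mfap3l (ENSMUST00000160719, chr8:60632860-60676729, plus strand), an immunoglobulin-domain membrane protein, separated in the Ezh2 cross alone. The Ezh2 controls held 3.99, 8.41 and 3.72 CPM and the knockouts 20.5, 16.8 and 12.3 CPM. The Ehmt2 controls held 5.97, 7.48, 4.07 and 10.8 CPM and the knockouts 9.62, 26.6, 20.2 and 12.9 CPM, where knockout 1 fell below control 4. Changes were log2 1.33 (SE 0.40) in the Ehmt2 cross and 1.61 (SE 0.40) in the Ezh2 cross.

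Heg1 (ENSMUST00000152782, chr16:33684466-33771576, plus strand), a transmembrane receptor that binds the CCM protein complex and is known from heart and vessel development, overlapped in the Ehmt2 cross. There the controls held 7.64, 6.40, 8.14 and 0.173 CPM and the knockouts 19.7, 6.27, 14.7 and 1.52 CPM. Both replicate 4 libraries were low, and knockout 2 lay below the 3 controls of its set. In the Ezh2 cross the controls held 6.37, 2.92 and 4.99 CPM and the knockouts 22.1, 14.1 and 7.52 CPM, with no overlap. Changes were log2 1.26 (SE 0.46) and 1.61 (SE 0.46).

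Atp2b4 (ENSMUST00000143567, chr1:133699457-133801041, minus strand), a plasma membrane calcium pump, had the most uneven Ehmt2 controls, at 0.800, 8.93, 1.73 and 9.33 CPM. The knockouts held 17.8, 14.6, 17.8 and 4.82 CPM, so knockout 4 was below control 4. The Ezh2 controls held 1.82, 2.64 and 3.94 CPM and the knockouts 7.34, 13.3 and 5.64 CPM, without overlap. Changes were log2 1.44 (SE 0.74) and 1.63 (SE 0.49). The Ehmt2 value moved from 0.90 to 2.43 when control 1 or control 2 was left out.

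The sorting nexins bind endosomal phosphoinositides through a phox domain, and the pair among the members went different ways. Snx25 (ENSMUST00000110378, chr8:46033261-46152159, minus strand) held 3.32, 3.39, 0.800 and 2.20 CPM in the Ehmt2 controls and 12.6, 3.53, 7.75 and 7.12 CPM in the knockouts. It held 3.50, 4.92 and 1.69 CPM in the Ezh2 controls and 13.6, 9.65 and 11.0 CPM in the knockouts. The groups did not overlap in either cross, with changes of log2 1.67 (SE 0.54) and 1.75 (SE 0.44). Snx25 overlaps Cfap97 on the opposite strand, and no strand was stated for these counts, so reads in the shared stretch cannot be told apart.

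Snx11 (ENSMUST00000021246, chr11:96767555-96777531, minus strand) held 2.77, 5.16, 2.60 and 4.28 CPM in the Ehmt2 controls and 6.67, 10.9, 6.21 and 4.56 CPM in the knockouts. In the Ezh2 cross the controls held 9.87, 3.92 and 11.6 CPM and the knockouts 5.96, 6.64 and 4.67 CPM. There all knockouts lay between the low control 2 and the other controls. The changes were log2 0.90 (SE 0.43) and -0.56 (SE 0.45), and each of the 3 Ezh2 knockouts was below the fitted control level.

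**Figure D1:**
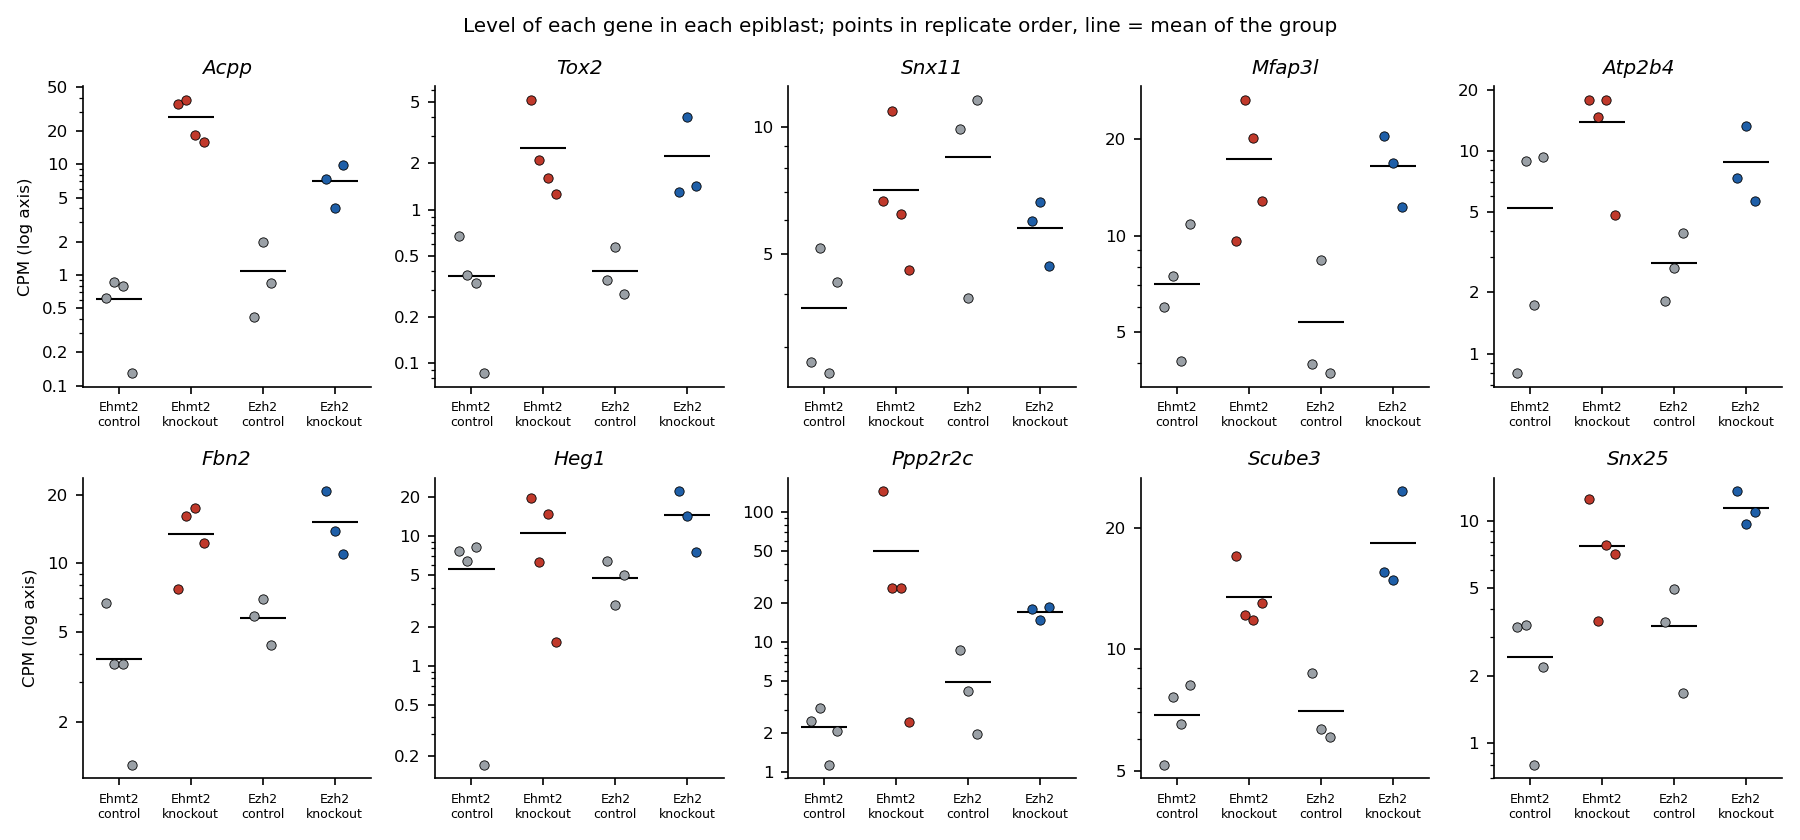
Level of each of the 10 genes in each of the 14 epiblasts, in CPM on a log axis that differs between panels; points stand in replicate order and lines are group means. Knockouts of both crosses lie above their controls in the panels of Acpp, Tox2, Fbn2, Scube3 and Snx25, and Ehmt2 knockout 1 stands at 145.71 CPM for Ppp2r2c.

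Within each cross, 5 of the 10 members had every Ehmt2 knockout above every control, and 9 of 10 did so in the Ezh2 cross, where Snx11 was the exception. Across genes tested this was so for 3.19% in the Ehmt2 cross and 7.42% in the Ezh2 cross. The members were chosen on these contrasts, so nothing is read from those counts. By epiblast, the members not above every control were Mfap3l in Ehmt2 knockout 1 and Heg1 in Ehmt2 knockout 2. In Ehmt2 knockout 4 they were Snx11, Atp2b4, Heg1 and Ppp2r2c, and in each Ezh2 knockout Snx11. In Ehmt2 knockout 3 all members were above every control. No share over all genes was worked out for single knockouts, so this too is a description.

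Values of the markers moved with part of these results. Of the Ehmt2 knockouts, knockout 1 was highest in extraembryonic ectoderm markers and in Ppp2r2c, Tox2, Heg1, Scube3, Snx25 and, narrowly, Atp2b4, and lowest in Fbn2 and Mfap3l. The part of those markers in these values was not tested. The mean marker level of Ehmt2 knockout 4, at 1.20, was within the range of its controls. Esrrb, Bmp4 and Ets2 were above every control, and Ddah1, Eomes, Wnt7b, Sox21 and Tfap2c were below every control. In that epiblast Acpp, Tox2, Fbn2, Mfap3l, Scube3 and Snx25 were above every control, whereas Ppp2r2c, Heg1, Atp2b4 and Snx11 were not. The mean of Ezh2 knockout 3, at 1.59, was close to its highest control at 1.57. Bmp4 (12.2 CPM), Esrrb (1.16 CPM) and, narrowly, Fgfr2 (9.72 CPM) were above every control there, and Ets2 (15.9 CPM) was below every control. The rest of that list lay within the range of the Ezh2 controls. How far the markers bear on the members in these epiblasts was not tested. In the Ehmt2 cross 5 of 12 extraembryonic ectoderm markers tested were called higher, against 0.815% of all genes, with a median log2 change of 3.41. In the Ezh2 cross, where 0% of genes were called, the 10 markers tested had a median of 0.73. Without Ezh2 knockout 1, the library with most visceral endoderm signal, the members' median log2 change was 1.54, and without Ezh2 control 2 it was 1.64, against 1.62 with all libraries. Single members moved further than that median. Ezh2 knockout 1 was the highest Ezh2 knockout for Fbn2, Heg1, Mfap3l and Snx25. Leaving it out took Heg1 from log2 1.61 to 1.17 and lowered Fbn2 to 1.10. Acpp, Mfap3l, Ppp2r2c, Snx11 and Snx25 fell less, and Tox2, Atp2b4 and Scube3 rose. The part of visceral endoderm signal in these values was not tested.

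Whether the change had the same size in both crosses was tested by an interaction term over all 14 epiblasts, in edgeR's quasi-likelihood fit of 15211 genes with Benjamini-Hochberg adjustment over all of them. Of these, 0.131% differed at an adjusted p under 0.05, and 0 of the 10 members did. At an unadjusted p under 0.05, which 9.54% of genes passed, 2 members differed, Acpp and Snx11. The members were picked to rise in both crosses, so these differences are not free of that choice. It does not fix their sign but limits their size, so the lack of a passing member is not read as equal change.

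Acpp rose further in the Ehmt2 cross by log2 2.90 (95% interval 1.39 to 4.405). The adjusted p was 0.171 in edgeR, and the difference passed in 1 of 21 alternatives, DESeq2, at an adjusted p of 0.00842. Over all 21 alternatives it stayed between 2.13 and 3.28, with adjusted p from 0.00842 to 0.462. Snx11 differed by log2 1.46 (interval 0.14 to 2.78, edgeR adjusted p = 0.470), from 1.16 to 1.81 over the alternatives with adjusted p from 0.342 to 0.686. Ppp2r2c differed by log2 2.16 (interval -0.31 to 4.62, edgeR adjusted p = 0.590), and by 0.91 without Ehmt2 knockout 1.

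The other 7 members differed between the crosses by less than the SE of that difference. The difference, Ehmt2 minus Ezh2, was log2 0.56 for Fbn2 (interval -0.70 to 1.81) and 0.42 for Tox2 (interval -1.71 to 2.56). It was -0.09 for Snx25 (interval -1.67 to 1.48) and -0.21 for Atp2b4 (interval -2.35 to 1.94). Mfap3l gave -0.29 (interval -1.56 to 0.98) and Heg1 -0.36 (interval -1.86 to 1.14). Scube3 had the narrowest interval, -1.27 to 0.46 around a difference of -0.40. Adjusted p in the edgeR fit lay between 0.808 for Scube3 and 0.982 for Snx25. These intervals include equal changes, and each also includes a difference of more than 2-fold in at least 1 direction. The median difference over the 10 members was log2 0.17, against -0.02 over all genes tested.

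**Figure D2:**
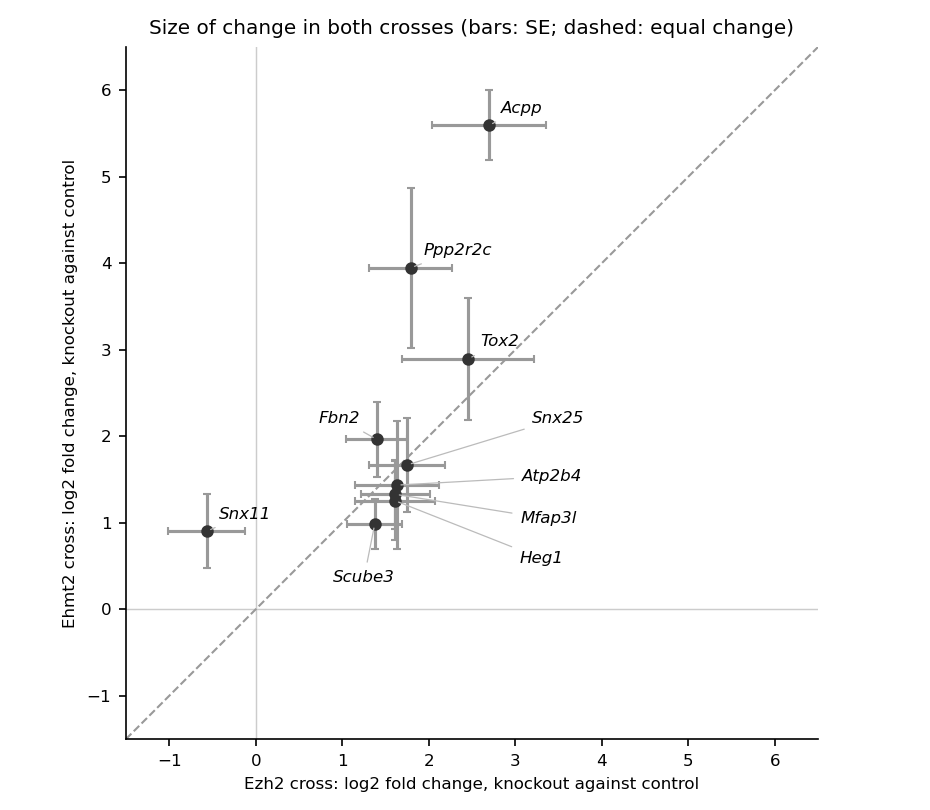
Log2 fold change of knockout against control in the Ehmt2 cross (vertical) against the Ezh2 cross (horizontal), 1 point per gene with bars of 1 SE; the dashed line marks equal change. Acpp and Ppp2r2c lie above the line and Snx11 lies left of 0. The bars of Tox2, Snx25, Atp2b4, Mfap3l and Heg1 reach the line, and those of Fbn2 and Scube3 stop short of it.

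Each knockout was also set on its own against the controls of its set, which for Ehmt2 knockout 4 was control 4 alone. Under a rule modelled on the study's methods, with another floor on low values, a gene counted as raised when all its single comparisons exceeded log2 1.4, the combined p (Fisher's method, unadjusted) was under 0.05 and every knockout had a normalised count of 5. It was met by 0.858% of genes in the Ehmt2 cross and by 0.771% in the Ezh2 cross, 118 and 108 genes, with 4 in both. With each Ehmt2 knockout set against all 4 controls, 4 genes again met it in both. Against the controls of the set these were Sfmbt2, Esrrb and the members Acpp and Tox2. The members' lowest single values were 1.87 for Acpp and 1.68 for Tox2, both in the Ezh2 cross. Nearest outside were Bmp4 at 1.31, Nexmif at 1.09 and Sycp2 at 1.06, none of them members. Esrrb and Bmp4 are both on the list of extraembryonic ectoderm markers used above. Ppp2r2c and Snx25 met the rule in the Ezh2 cross only, stopped in the Ehmt2 cross by knockout 4 (log2 0.21) and knockout 2 (log2 0.49).

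The remaining members met it in neither cross. Scube3 was above 1.4 in 1 of 4 Ehmt2 knockouts and 1 of 3 Ezh2 knockouts, yet all its single values were positive, from 0.67 to 1.80. Fbn2 ran from 0.75 to 3.23 and from 0.92 to 1.86. Heg1 ran from -0.23 to 3.08 and from 0.64 to 2.22, the 3.08 being knockout 4 (41 counts) against control 4 alone (4 counts), and Atp2b4 from -0.96 to 2.22 and from 0.99 to 2.23. Mfap3l ran from 0.24 to 2.19 and from 1.18 to 1.93.

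A looser cut, an unadjusted p under 0.05 and a higher level, was passed by 7.46% of genes in the Ehmt2 cross and 4.34% in the Ezh2 cross. The 82 genes passing in both were 8% of the first list and 13.5% of the second, and 8 members were among them, Snx11 and Atp2b4 being absent. With a change above log2 1.4 as well, 28 genes and 4 members (Acpp, Tox2, Ppp2r2c, Snx25) remained. At an adjusted p under 0.05 with log2 1.4, 0.815% of genes were called higher in the Ehmt2 cross, Acpp among them, and 0% in the Ezh2 cross by edgeR, where DESeq2 called 46 genes higher.

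**Figure D3:**
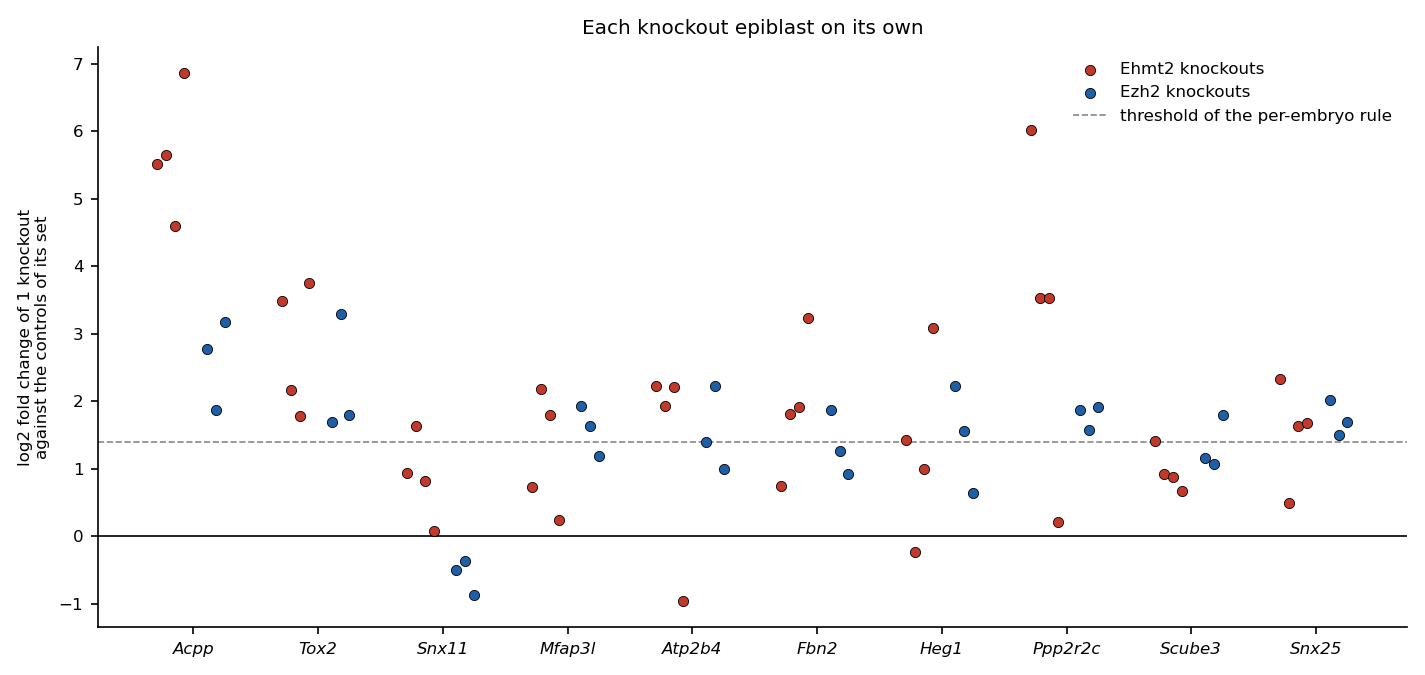
Log2 fold change of each single knockout against the controls of its set, 4 points per gene for the Ehmt2 cross and 3 for the Ezh2 cross; the dashed line is the threshold of 1.4. All points of Acpp and Tox2 lie above it, and the 3 Ezh2 points of Snx11 lie below 0.

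The isoforms of a gene share reads, since each transcript was counted by itself. Even so, the isoforms of Snx11 parted. A pair met the per-embryo rule in the Ehmt2 cross, ENSMUST00000127375 (protein coding, log2 2.96, SE 0.72) and ENSMUST00000132354 (processed transcript, log2 3.83, SE 0.87), with Ezh2 values of -0.38 and 0.40. Another, the processed transcript ENSMUST00000136799, met it in the Ezh2 cross alone. Its counts there were 15, 18 and 8 in controls and 71, 92 and 57 in knockouts, a log2 change of 2.40 (SE 0.53), against 0.19 (SE 0.51) in the Ehmt2 cross. No Snx11 isoform met the rule in both crosses, and the gene appears in both only when different isoforms are combined. In the same interaction test over 55248 transcripts, where 0.0579% differed, the adjusted p was 0.418 for ENSMUST00000136799 and 0.441 for ENSMUST00000127375.

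In Atp2b4, the shorter isoforms ENSMUST00000125659 and ENSMUST00000112264 were above log2 1.4 in every Ehmt2 knockout, with changes of 2.54 (SE 0.45) and 3.11 (SE 0.57). ENSMUST00000125659 had 6 to 29 counts in the controls and 50 to 114 in the knockouts. In the Ezh2 cross these isoforms changed by 1.14 (SE 0.66) and 0.91 (SE 0.77) and did not meet the rule. The 3 long isoforms, which share nearly all their counts, changed by up to 1.46 in the Ehmt2 cross and by 1.65 to 1.85 in the Ezh2 cross. Over all transcripts tested, 0.565% met the rule in the Ehmt2 cross and 0.57% in the Ezh2 cross. For Acpp, with 5 listed isoforms, 4 of 4 tested met it in the Ehmt2 cross and 1 of 3 in the Ezh2 cross. For Tox2, also with 5 listed, 2 of 2 tested and 1 of 1 tested met it. For Snx25, 5 of 8 tested isoforms met it in the Ezh2 cross, 4 of them with nearly identical counts, and 0 of 6 in the Ehmt2 cross. Mfap3l, Fbn2 and Heg1 had no isoform that met it, while 1 of Scube3, ENSMUST00000137147, met it in the Ehmt2 cross (log2 2.02, SE 0.38).

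**Figure D4:**
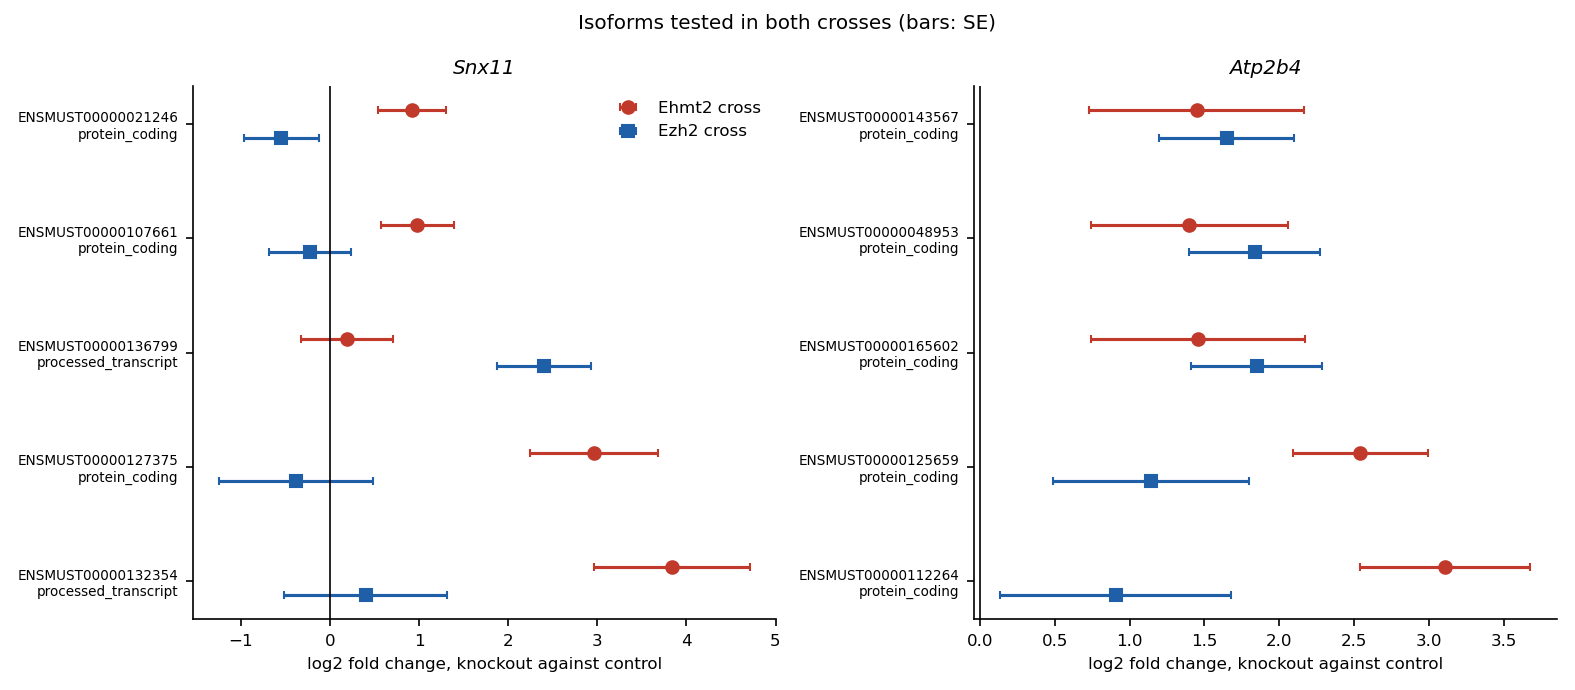
Log2 fold change, with bars of 1 SE, of each Snx11 (left) and Atp2b4 (right) isoform tested in both crosses, circles for the Ehmt2 cross and squares for the Ezh2 cross. The Snx11 isoform raised in the Ezh2 cross, at 2.40, is not the ones raised in the Ehmt2 cross, at 2.96 and 3.83.

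All members were lowly expressed in control epiblasts. On a per-length scale (CPM per kilobase of the transcript read), control means ran from 0.1297 for Tox2 and 0.181 for Acpp through 0.356 for Atp2b4, 0.420 for Fbn2, 0.641 for Heg1, 0.822 for Snx25 and 0.824 for Ppp2r2c to 1.00 for Mfap3l, 1.01 for Scube3 and 2.25 for Snx11. No neighbours in this order differed by more than the larger of their SDs over the 7 controls. These levels were at the 3.57 percentile (Tox2) to the 36.4 percentile (Snx11) of 15211 genes. In knockouts the mean over both crosses was highest for Ppp2r2c at 8.80 and Acpp at 4.11 CPM per kilobase. For Ppp2r2c that mean rests on Ehmt2 knockout 1 at 35.6 CPM per kilobase, the other 6 knockouts lying between 0.589 and 6.42.

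The other genes of each family did not pass a call. The lists held 6 acid phosphatases tested, 3 Tox family genes, and 31 sorting nexins and Vps retromer genes. They also held 18 or 19 fibrillin matrix and microfibril-named genes, 6 or 7 calcium pumps and 14 PP2A subunits. A further 10 were genes of the CCM complex that binds Heg1 and others listed with it, such as Rap1a, Klf4 and Cdh5. No gene of any list was called in either direction in either cross or in the difference by edgeR. Lower calls were 0.0873% of all genes in the Ehmt2 cross. At an unadjusted p under 0.05, the lower cut passed by 6.98% of genes in the Ehmt2 cross and 3.65% in the Ezh2 cross, 3 sorting nexins were higher and 1 lower in the Ehmt2 cross, and 1 and 1 in the Ezh2 cross. For the matrix and microfibril-named genes, 0 were higher and 3 lower in the Ehmt2 cross, and 3 higher and 0 lower in the Ezh2 cross. Their median log2 changes were -0.21 and 0.14, against -0.01 and 0.01 over all genes. For PP2A subunits the medians were 0.07 and -0.0004, with 0 higher and 1 lower, and 0 higher and 2 lower, at that cut. The tested genes next to the members on their chromosomes, 20 in all, had 0 calls in either cross by edgeR, and at an unadjusted p under 0.05 there were 5 higher and 1 lower in the Ehmt2 cross and 0 higher and 1 lower in the Ezh2 cross, against 7.46% and 4.34% of all genes higher, with median changes of 0.37 in the Ehmt2 cross and 0.03 in the Ezh2 cross.

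The members rose and fell together across epiblasts to differing degrees. Over the 14 epiblasts, after the control mean of each set had been taken off, the 45 pairs of members had Pearson correlations from -0.05 to 0.82 with a median of 0.65. Both knockout status and the set they were chosen on enter these values, so they are a description. The genes most like single members, among 13339, were Arl14epl for Acpp (r = 0.966), Cpne3 for Ppp2r2c (r = 0.966), Sfmbt2 for Tox2 (r = 0.929), Ndufb9 for Snx25 (r = 0.924), Pcdh17 for Mfap3l (r = 0.916), Pik3r1 for Heg1 (r = 0.909), Atp5f1 for Atp2b4 (r = 0.906), Slc7a1 for Scube3 (r = 0.902), Pros1 for Fbn2 (r = 0.902) and Dnm1l for Snx11 (r = 0.879). Most like the mean of the 10 were Sfmbt2 (r = 0.942), Bmp4 (r = 0.940), Tbx20 (r = 0.923), Xlr4b (r = 0.920) and Sycp2 (r = 0.916). Sfmbt2, a Polycomb-group gene known for its role in the placenta, rose by log2 5.02 (SE 0.60, edgeR adjusted p = 0.00177) in the Ehmt2 cross and was at 3.44 (SE 0.66, edgeR adjusted p = 0.357) in the Ezh2 cross. Bmp4, a signal of the extraembryonic ectoderm, rose by log2 3.18 (SE 0.52, edgeR adjusted p = 0.0135) in the Ehmt2 cross and was at 2.08 (SE 0.42, edgeR adjusted p = 0.357) in the Ezh2 cross.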

How the data were processed

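RNA from single E6.25 epiblasts, 750 pg each, was amplified and sequenced by the authors. Per the study's methods and the submitters' processing notes, reads were trimmed to 40 nt, aligned with TopHat2 to GRCm38/mm10 and counted with HTSeq-count for each Ensembl release 74 transcript. The deposited values are raw counts of reads per transcript, with no normalisation, listing only transcripts with at least 1 count. Amplified reads are not independent molecules. Both replicate 4 libraries of the Ehmt2 cross carried rows naming no transcript, 12.632% and 13.282% of their counts, which were left out. Gene names came from GENCODE release M21, which matched 96.56% of 72515 transcripts.

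Counts of 1 transcript per gene (filterByExpr, minimum count 10; TMM scaling) were fitted with edgeR 4.0.16 in R 4.3.3 (quasi-likelihood, two-sided, Benjamini-Hochberg adjustment), within each cross and jointly for the difference. A call was an adjusted p under 0.05 and a log2 change over 1.4. The rule above, modelled on the study's, was fitted likewise. CPM were scaled by TMM over all 14 libraries, and correlations used log2(CPM + 0.5). Scripts were tested on simulated data. Alternatives were RLE scaling, no filter, all transcripts, DESeq2 1.42.0, a replicate block, no set term, replicates 1 to 3 alone, and leaving out each epiblast. The members and all gene lists were chosen with earlier results of these data known. Genes named beside the members were those most like them, those nearest the rule's threshold, and any list or neighbouring gene that was called. No replicate pair agreed within sampling noise over 18 pairs compared. Same-numbered samples did not deviate together in every pair, so numbers were not taken to pair them. Histone mark and methylation samples were not used here.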

Additional observations from a re-analysis of the deposited data

Results flagged for a closer look

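Ehmt2 knockout replicate 1 had 145.71 CPM of Ppp2r2c, and the gap to the next of the 4 knockouts was 0.834 of the group's range in CPM. A gap of that share is beyond Dixon's 95% limit for 4 samples. In log2 CPM knockouts 1 to 4 were at 7.19, 4.74, 4.73 and 1.54, so knockout 4 also stood apart, and the flag depends on the scale. The flagged group was 1 of 20 such groups, and chance alone gives about 5%. Knockout 1 was also the epiblast with the highest extraembryonic ectoderm marker level (5.64). Whether these are linked was not tested.

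The fitted values of Snx11 lay in opposite directions, up in all 4 Ehmt2 knockouts and down in all 3 Ezh2 knockouts relative to the fitted controls. Ehmt2 knockout 4 rose by only log2 0.08 and lay below Ehmt2 control 2. All 3 Ezh2 knockouts lay above Ezh2 control 2. Neither change stood by itself, with unadjusted edgeR p of 0.0564 in the Ehmt2 cross and 0.236 in the Ezh2 cross. The difference, log2 1.4566, had an unadjusted p of 0.0326 and an adjusted p of 0.470 in the edgeR fit, so it failed the correction.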

How the results depend on the processing

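The members' changes were recomputed 470 times over the alternatives; 438 kept their direction and side of the threshold, 15 passed the threshold where they had not, and 17 changed sign. The 17 were all differences between crosses of less than 0.43 in the reported fit: Atp2b4 (0.22 with the replicate block, 0.50 with Ehmt2 replicates 1 to 3, -0.73 to 0.82 without single epiblasts), Mfap3l (0.073 with Ehmt2 replicates 1 to 3, -0.76 to 0.073 without single epiblasts), and, without single epiblasts, Snx25 (-0.46 to 0.23), Tox2 (-0.026 to 1.15) and Heg1 (-0.73 to 0.093). The cause was not tested. 

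Counts of genes depended more on the processing. Genes called in the Ehmt2 cross, 124, became 246 with no filter, 287 with DESeq2, 28 with no set term, 205 with replicates 1 to 3, and 51 to 200 without single epiblasts. The Ezh2 cross had 0 calls in edgeR, with 608 higher and 512 lower at an unadjusted p under 0.05; it had 1 with no filter, 1 with all transcripts, 48 with DESeq2, and 0 to 8 without single epiblasts. Genes differing between the crosses, 20, became 40 with no filter, 131 with DESeq2, 2 with no set term, and 4 to 18 without single epiblasts. The 4 genes raised in both by the per-embryo rule became 9 with replicates 1 to 3 and 3 to 9 without single epiblasts; without Ehmt2 control 4 the rule could not be fitted. Replicate numbers were not taken to pair the samples, and whether they follow litters is not known. Correlations of deviations between same-numbered samples were 0.05 to 0.37 in the Ehmt2 cross (mean 0.17, against -0.05 for unlike numbers). In the Ezh2 cross they were -0.16 to 0.20 (mean 0.03, against -0.01). With the replicate block the calls were 71, 1 and 5 in the Ehmt2 cross, the Ezh2 cross and the difference. With control or knockout 4 left out, its partner in the set adds nothing to the contrast. Tox2 values rested on 2 to 11 counts in each control.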
